A study of Mus musculus with 7 samples.

Results

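Alveolar macrophage nuclei were examined in lung tumors of mice with small cell lung cancer. A nucleus counted as an alveolar macrophage nucleus when it held at least 3 of the 9 macrophage genes Mertk, Colec12, Myo1f, Cd84, Apobec1, Tbxas1, Csf1r, Mrc1 and Gpnmb, when these made up at least 0.2% of its transcripts, and when it held at least 1 transcript of Atp6v0d2, Chil3, Marco or Krt79. The rule found 384 of 38254 kept nuclei, 1.004% of the data, so the members were chosen by their measured transcripts. A further 170 nuclei met the first conditions and held no transcript of those 4 alveolar genes. They are called other macrophage-rule nuclei below, and together the classes held 554 nuclei.

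The tumors came from 4 male mice, RP1 and RP2, in which Rb1 fl/fl was combined with Trp53 fl/fl (RP), and RPC1 and RPC2, in which Casp8 was lost as well (RPC). The labels write the added allele as Casp8-/-, whereas the study's methods describe conditional Casp8 alleles. Loss of the conditional alleles was started in adult animals by inhaled adenovirus carrying Cre under the CMV promoter, which is not restricted to a cell type, and fresh-frozen tumors were taken at the study's endpoint. All animals therefore shared the Rb1 and Trp53 alleles and the virus, and no lung without tumor was part of the design. The 7 sequenced libraries each pooled nuclei of all 4 animals, so the animal was the replicate, with 2 per genotype. No full barcode and no first-round barcoding well was shared between animals, and each of the 7 sublibraries held alveolar macrophage nuclei of every animal. Per the study's methods, nuclei of all wells were pooled before the later barcoding rounds.

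Alveolar macrophages live in the airspaces, where they take up inhaled particles, dying cells and surfactant lipid. They are kept as a self-renewing population by GM-CSF and TGF-beta, which act through the nuclear receptor PPAR-gamma, and their lysosomes and lipid enzymes break down what is engulfed. Interstitial and monocyte-derived macrophages of the lung tissue carry other programs, marked by complement C1q, MAF and scavenger receptors such as stabilin-1.

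Depth set what could be seen. The alveolar macrophage nuclei held medians of 3304.5, 2839, 4440 and 3235.5 transcripts (animals always in the order RP1, RP2, RPC1, RPC2), and the other macrophage-rule nuclei 2158, 2069, 3281.5 and 2041.5. Summed over nuclei, the alveolar class held 153159, 638641, 1016931 and 466995 transcripts, so RP1, with 34 nuclei, was the least precise animal. The share of transcripts from Rn18s-rs5, a ribosomal RNA entry, was 9.62%, 8.98%, 3.25% and 5.30% in the alveolar class. It was 9.996%, 8.48%, 3.09% and 5.35% in the nuclei outside the macrophage rule, and thus higher in both RP than in both RPC animals. Levels are given as counts per 1000000 transcripts (CPM) of the summed nuclei of an animal, and differences as log2 fold changes.

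The genes of the rule chose the nuclei, so their values are a description. Atp6v0d2, which encodes a subunit of the vacuolar proton pump, was found in 362 of the 384 nuclei (94.3%), and its level was 953, 869, 1140 and 1154 CPM by animal. Chil3, a secreted chitinase-like lectin, was found in 191 nuclei (49.7%), at 71.8, 432, 396 and 244 CPM by animal. RP1 was far below the other animals for Chil3. Marco, a scavenger receptor, was found in 28 nuclei, none of them among the 34 nuclei of RP1, and Krt79 in 4. Atp6v0d2 without any other of the 4 alveolar genes was seen in 185 nuclei, Atp6v0d2 together with Chil3 in 171, and Chil3 without Atp6v0d2 in 20. Selection thus rested on Atp6v0d2 in most nuclei.

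Among the pan-macrophage genes, Mertk, a receptor for engulfing dying cells, was present in 359 nuclei (93.5%), and Myo1f, a myosin of leukocytes, in 335 (87.2%). Csf1r, the receptor for macrophage colony-stimulating factor, was the least often seen, in 219 nuclei (57.0%). The median alveolar macrophage nucleus held 7 of the 9 genes, and 67 nuclei held all 9. Colec12, a scavenger receptor, reached 1247, 1638, 1188 and 1201 CPM in the alveolar class against 268, 622, 117 and 673 in the other class, and Gpnmb, a lysosomal membrane glycoprotein, 562, 683, 492 and 490 against 159, 147, 75.1 and 139. Both were higher in the alveolar class of every animal, although neither of them decided between the classes. The other pan-macrophage genes did not all go this way. By mean over animals, Mertk, Myo1f and Cd84 were higher in the alveolar class and Tbxas1 was level (511 against 513 CPM). Lower there were Csf1r (228 against 400), Mrc1 (415 against 513) and Apobec1 (581 against 695).

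The label was checked against genes outside the rule. Of 20 alveolar macrophage identity genes that the rule did not use, Pparg, the master regulator of the lineage, stood at 320, 288, 373 and 304 CPM in the alveolar class, against a mean of 41.9 in nuclei outside the macrophage rule. Ctsk (cathepsin K) stood at 215, 304, 274 and 278 CPM and Csf2rb, a GM-CSF receptor chain, at 451, 244, 339 and 233. Lpl (lipoprotein lipase), Slc7a2 (a carrier of cationic amino acids), Abcg1 (a cholesterol exporter), Olr1 and Plet1 were likewise present in every animal. Siglecf, the usual surface marker of these cells, gave 4 transcripts in all 384 nuclei, and Car4 3, Fabp1 3 and Ear1 4. Outside the genes that chose the nuclei, Pparg, Ctsk, Csf2rb and Lpl were thus found in every animal, and Siglecf and Car4 were at or near 0 in nuclear RNA.

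At the edge of the rule the summed identity genes differed by bin, but not every gene followed the sum. Summed over the 20 genes, their level was 1201 CPM in the 170 nuclei without an alveolar transcript and 1841 in the 45 with 1. It was 2401 in the 103 with 2 to 4 and 2609 in the 236 with 5 or more. The bins pool the animals unequally, with 9, 77, 98 and 52 nuclei by animal in the bin of 5 or more. Median depth was 2158, 2389, 2529 and 4146.5 transcripts over the bins. The part of depth and animal in these levels was not tested. Ctsk went from 21.5 to 86.9, 220 and 313 CPM over these bins, and Plet1 from 1.96 to 27.2, 32.9 and 54.4, while Lpl was highest in the bin of 2 to 4 (324 CPM). Other members had no such order. Itgax stood at 239, 326, 225 and 226 CPM over the bins, Csf2ra at 72.5, 92.3, 65.9 and 61.4, Olr1 at 25.5, 21.7, 74.1 and 68.9 and Abcg1 at 294, 424, 403 and 483. Just outside the rule on the other side, 76 nuclei with an alveolar transcript and exactly 2 pan-macrophage genes gave 372 CPM, and 151 nuclei with 3 or more pan-macrophage genes that made up under 0.2% of their transcripts gave 467 CPM at a median of 30045 transcripts.

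**Figure D1:**
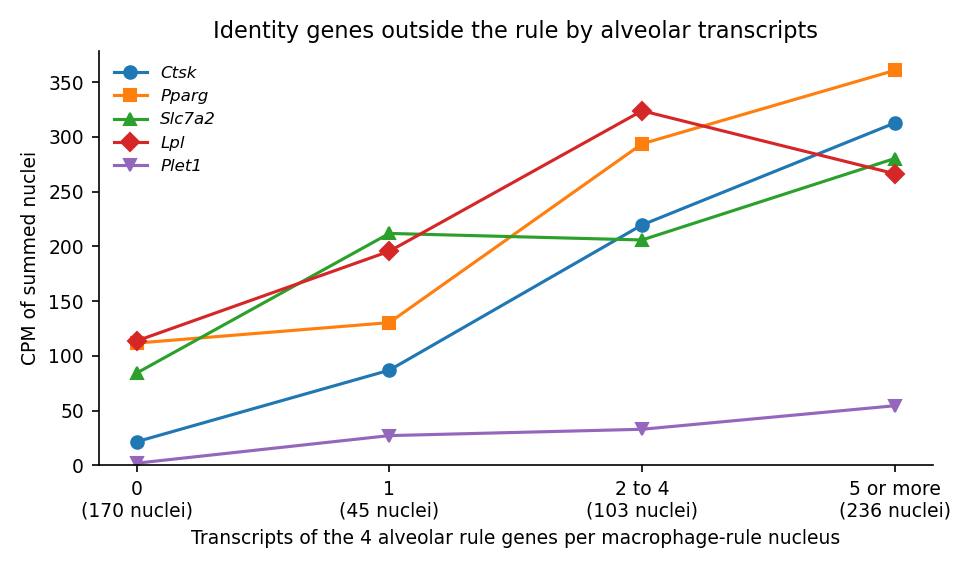
Level of 5 alveolar macrophage identity genes outside the rule (CPM of summed nuclei of all 4 animals, vertical axis) by the number of transcripts of the 4 alveolar rule genes in a macrophage-rule nucleus (horizontal axis, with the number of nuclei). Ctsk climbs from 21.5 CPM at 0 transcripts to 313 at 5 or more, and Lpl is highest, at 324, in the bin of 2 to 4.

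Far above all other nuclei stood a wide set of genes. With at least 50 CPM in the alveolar class and at least 10 times the level of nuclei outside the macrophage rule in each of the 4 animals, there were 187 genes beside the rule genes. Of these, 32 were also called higher in the alveolar than in the other macrophage class, 18 were called lower, and 132 were tested between the classes without a call. The rest were not tested. Over all genes tested between the classes, 2.81% were called higher and 3.47% lower. Cd300lb, Siglec1 and Lilrb4b, all receptors of myeloid cells, stood at least 133, 130 and 123 times above the nuclei outside the rule in every animal. Itgax, which encodes CD11c, stood at least 69.2 times above them, and Mmp12, macrophage elastase, at least 47.4 times. These folds describe myeloid nuclei in general as much as the alveolar class.

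Markers of other cells were present, some at a lower and some at a higher level than in the nuclei outside the rule. Summed over 15 neuroendocrine tumor markers, the alveolar class held 1156, 1304, 2034 and 2287 CPM by animal, which was 34.1%, 45.5%, 45.6% and 52.5% of the sum in nuclei outside the rule. Calca, which encodes the calcitonin gene-related peptide of neuroendocrine cells, was at 261, 255, 741 and 745 CPM, with both RPC animals above both RP animals, and it was at 735, 663, 1699 and 1604 CPM in the nuclei outside the rule. Endothelial markers summed to 274, 440, 1186 and 561 CPM by animal, T and NK cell markers to 287, 387, 648 and 452, and airway markers to 19.6, 42.3, 193 and 81.4, each below the nuclei outside the rule and each higher in both RPC animals. Alveolar type 1 markers summed to between 68.9 and 104 CPM and fibroblast and mural markers to between 6.42 and 89.3, also below those nuclei, and alveolar type 2 markers to between 135 and 176, below them except in RP1 (133% of their sum). B cell markers, at 20.4 to 64.2 CPM, were at 114% to 357% of the level outside the rule, dendritic cell markers, at 59.96 to 73.6 CPM, at 257% to 320%, and neutrophil markers, at 23.6 to 45.7 CPM, at 1177% to 2998%. Cd3d, Cd3g, Cd79b, Ly6g and Retnlg were at 0 in all 384 nuclei. The part of this RNA in the differences below was not tested.

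The share of alveolar macrophage nuclei overlapped between the genotypes. It was 0.407% of kept nuclei in RP1 (95% exact binomial interval 0.282% to 0.568%), 1.53% in RP2 (1.29% to 1.81%), 1.16% in RPC1 (0.968% to 1.38%) and 0.866% in RPC2 (0.695% to 1.07%). The RP animals bracketed both RPC animals, with 0.970% ± 0.796 in RP and 1.01% ± 0.209 in RPC (SD, n = 2 each, difference 0.0438 points, two-sided exact permutation p = 1). The smallest p that 2 against 2 animals allow is 0.333. Intervals cover counting error only, and the rule needs a transcript, so the share also depends on depth.

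Within the macrophages the alveolar share had a higher mean in the RPC animals, by an amount that depended on the RP animals. It was 43.6% of 78 macrophage-rule nuclei in RP1, 68.0% of 200 in RP2, 85.1% of 148 in RPC1 and 68.8% of 128 in RPC2, with means of 55.8% ± 17.3 in RP and 76.9% ± 11.6 in RPC (SD, n = 2 each). Both RPC animals lay above both RP animals, RPC2 by less than a point over RP2, and the difference of 21.1 points gave the smallest p the design allows (two-sided exact permutation p = 0.333). The difference was 8.94 points when RP1 was left out and 33.4 points when RP2 was left out, and 12.96 and 29.3 points when RPC1 or RPC2 was. With each nucleus thinned to 1000 transcripts, the shares were 30.9%, 62.4%, 70.0% and 53.5%, the genotypes overlapped, and the difference was 15.1 points (exact permutation p = 0.667). Thinning left 7145, 7666, 10558 and 9441 nuclei, since shallower ones were left out. Asking for at least 2 alveolar transcripts likewise gave overlapping genotypes, with a difference of 23.1 points (exact permutation p = 0.667).

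**Figure D2:**
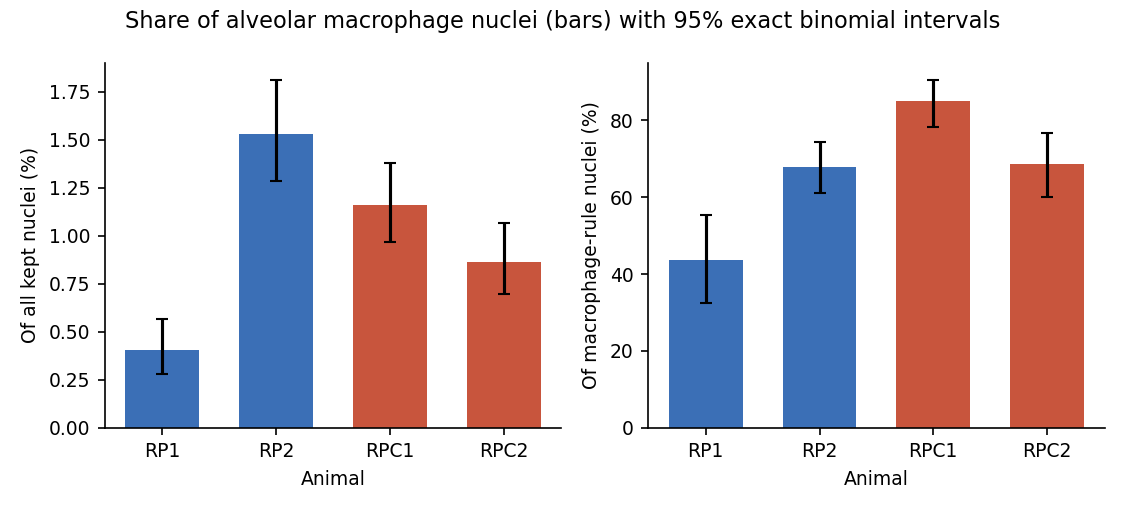
Share of alveolar macrophage nuclei in each animal, as a percent of all kept nuclei (left) and of macrophage-rule nuclei (right), with bars for the share, lines for the 95% exact binomial interval, RP in blue and RPC in red. On the left RP1 (0.407%) and RP2 (1.53%) lie on either side of the RPC animals, and on the right RPC1 is highest at 85.1% and RP1 lowest at 43.6%.

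Next, the alveolar class was compared with the other macrophage-rule nuclei of the same animals, to see which further genes went with the 4 alveolar transcripts. The alveolar nuclei were higher for Pparg, Ctsk, Cd36, Mgll and Lgals3, and lower for Maf, Ms4a7, Stab1, Apoe and Rbpj. All of these stayed past the threshold on leaving out any 1 animal. Ctsk, Cd36 and Maf passed the filter on low counts through the class in which they were higher. Of 3771 genes tested (edgeR quasi-likelihood test with the animal as a block, the 13 rule genes left out), 106 were called higher (2.81%) and 131 lower (3.47%) at an adjusted p under 0.05, and 221 of these 237 kept their direction in all 4 animals. Deeper nuclei are more likely to show an alveolar transcript, and among nuclei with at least the median transcripts of the macrophage-rule nuclei 45 genes were called. Leaving out RPC2 gave 111 calls.

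The largest fitted rises were led by Col24a1, a collagen chain, at 313, 175, 141 and 113 CPM in the alveolar class against 8.38, 11.7, 0 and 9.90 CPM in the other class (log2 fold change 4.54, SE 0.44, adjusted p = 1.36e-06). Ctsk followed, with 8.38, 35.2, 16.7 and 19.8 CPM in the other class against the levels given above (log2 fold change 3.66, SE 0.32, adjusted p = 5.87e-07). The groups did not overlap for either gene, but Col24a1 had 1, 2, 0 and 1 transcripts in the other class and Cd36 0, 6, 1 and 0, so both passed the filter on low counts through the alveolar class and the size of their fold is poorly set. The same limit holds for Ctsk, Lepr, Nrg4, Kcnn3, Il7r and Slc9a4. In the other class these stood at 0 to 58.7 CPM, where 3 transcripts were 17.6 to 29.7 CPM. Cd36, a scavenger receptor for oxidized lipid, stood at 176, 149, 108 and 246 CPM against 0, 35.2, 8.35 and 0 (log2 fold change 3.58, SE 0.48), and Mgll, which splits monoacylglycerol, at 215, 363, 282 and 268 against 75.4, 64.6, 41.7 and 29.7 (log2 fold change 2.43, SE 0.27). Lepr, the leptin receptor, rose by 2.67 on the log2 scale, Kcnip4, a potassium channel-interacting protein, by 2.62, Nrg4, a ligand of the ErbB4 receptor, by 2.62, Kcnn3, a potassium channel, by 2.48, Il7r, the interleukin-7 receptor, by 2.37 and Slc9a4, a sodium-proton exchanger, by 2.36. Each of these 10 genes was past the threshold in every alternative in which it was tested.

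The largest falls were led by Spon1, an extracellular matrix protein, at 6.53, 9.39, 10.8 and 2.14 CPM in the alveolar class against 75.4, 141, 100.2 and 297 CPM in the other class (log2 fold change -4.16, SE 0.43, adjusted p = 2.42e-06). Abca9, a lipid transporter of the ABC family, had a log2 fold change of -3.97, Rcsd1 of -3.82 and Mir99ahg, a long noncoding host gene of microRNAs, of -3.05. Mef2c, a transcription factor, stood at 13.1, 18.8, 27.5 and 38.5 CPM against 83.8, 170, 159 and 228 (log2 fold change -2.71, SE 0.29). Fgd2 had -2.42, Adam19, a membrane protease, -2.40, Negr1 -2.32 and Inpp4b, a phosphoinositide phosphatase, -2.31 on the log2 scale. Rbpj, the DNA-binding effector of Notch signaling, stood at 84.9, 128, 111 and 118 CPM in the alveolar class and at 352, 528, 384 and 1020 in the other class (log2 fold change -2.27, SE 0.22, adjusted p = 1.36e-06). No alveolar value of Rbpj reached any value of the other class. The 10 falls also stayed past the threshold in every alternative in which they were tested. Spon1, Abca9 and Rcsd1 had few transcripts in the alveolar class, at 1.57 to 32.6 CPM. Mir99ahg, Mef2c, Fgd2, Adam19, Negr1 and Inpp4b also stood low there, at 7.83 to 144 CPM. All of these genes passed the filter on low counts through the other class, so the size of their fold is poorly set.

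**Figure D3:**
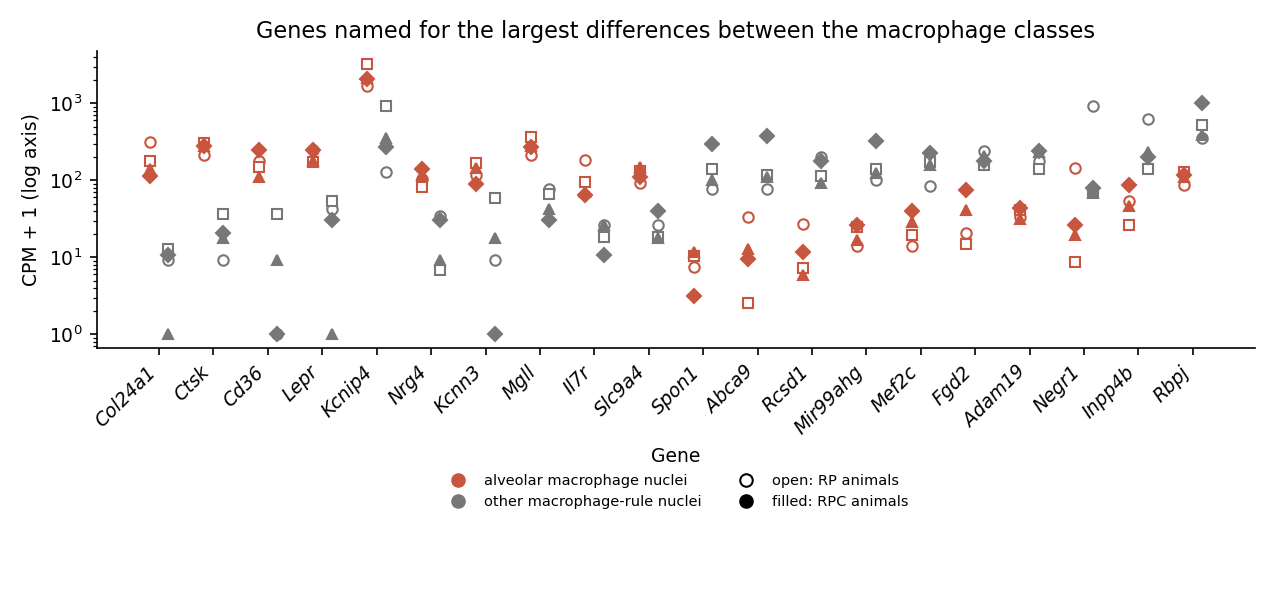
CPM + 1 on a log axis for the 10 largest rises and 10 largest falls between alveolar (red) and other macrophage-rule nuclei (gray), with 1 point per animal (shapes tell animals apart), open for RP and filled for RPC. Ctsk and Mgll are higher in the alveolar class of all 4 animals, and Spon1 and Rbpj lower in all 4.

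By list, 8 of the 20 identity genes could be tested, and all 8 lay above 0. Of the 8, 6 were called higher, against 2.81% of all genes tested between the classes. The median log2 fold change was 1.23 against -0.0038 over all tested genes. Ctsk, at 8.38 to 35.2 CPM in the other class, passed the filter on low counts through the alveolar class. Its direction is therefore no independent support for the label. Pparg rose by 1.56 (SE 0.25, adjusted p = 0.000362), Lpl by 1.61 (SE 0.31), Slc7a2 by 1.55 (SE 0.32), Csf2rb by 0.91 (SE 0.24) and Abcg1 by 0.80 (SE 0.19) on the log2 scale. The calls of Lpl, Slc7a2 and Abcg1 were lost without RPC2 (highest adjusted p 0.0566, 0.0762 and 0.106), and that of Csf2rb without RP1 or without RP2 (highest adjusted p 0.150). Itgax and Csf2ra, the other tested members, stayed at 0.21 (SE 0.19) and 0.35 (SE 0.34). The other 12 members, Siglecf among them, had too few transcripts for the test.

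Genes of interstitial macrophages and monocytes ran the other way. Of 22, 5 could be tested, none lay above 0, and 4 were called lower, with a median of -1.55. Stab1 was at 150, 95.5, 110.1 and 107.1 CPM in the alveolar class against 578, 540, 301 and 762 (log2 fold change -2.19, SE 0.22, adjusted p = 1.75e-06), and the log2 fold change was -2.14 (SE 0.31) for Maf, -1.55 (SE 0.18) for Ms4a7 and -0.83 (SE 0.23) for C1qb. The call of C1qb was lost without RP2, RPC1 or RPC2 (highest adjusted p 0.267). Ly6c2, the classical monocyte marker, and Pf4 had no transcript in the alveolar class.

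Of the GM-CSF, TGF-beta and lineage factors, 13 of 20 were tested, with 3 called higher, 1 called lower and a median of -0.23. Among all tested genes, 2.81% were called higher and 3.47% lower. Csf2rb, Csf2rb2 and Pparg were the rises and Rbpj the fall. Csf2rb and Csf2rb2 are close copies whose counts can be split between them, and the call of Csf2rb2 (1.18, SE 0.31) was lost without RP2, RPC1 or RPC2 (highest adjusted p 0.135). Zeb2, which keeps macrophages of each tissue in their identity, was at 1397, 1254, 1250 and 1340 CPM and did not pass the test (-0.33, SE 0.15), nor did Tgfbr1 (-0.23, SE 0.18) or Runx1 (-0.09, SE 0.16).

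Lipid genes held the most calls. Of 26, 17 were tested, 7 were called higher and 1 lower, and 14 of 17 lay above 0, with a median of 0.66. The shares called over all tested genes were 2.81% higher and 3.47% lower. Beside Cd36, Lpl, Mgll, Abcg1 and Pparg, the calls were Lipa, the lysosomal acid lipase (1.18, SE 0.28), and Nceh1, a cholesteryl ester hydrolase (0.87, SE 0.21), while Apoe, an apolipoprotein, was the single fall (-1.59, SE 0.26, adjusted p = 0.000542). The call of Lipa was lost without RPC2, and that of Nceh1 without RP1 or RPC2. Abca1, the other cholesterol exporter on the list, was at 914, 678, 666 and 1193 CPM in the alveolar class and did not pass the test (-0.08, SE 0.17).

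The lysosome and V-ATPase list moved in both directions, with 21 of 26 tested, 3 called higher, 2 called lower and a median of 0.32. For comparison, 2.81% of all tested genes were called higher and 3.47% lower. Ctsk, Lipa and Ctsd, which encodes cathepsin D (0.81, SE 0.21), were higher, and Ctsc, which encodes cathepsin C (-0.76, SE 0.20), was among the lower. The calls of Ctsd and Ctsc were each lost without RPC1, among other animals. Mitf, a transcription factor of lysosomal genes, was at 1005, 888, 601 and 634 CPM and did not pass (0.32, SE 0.17).

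The remaining lists held few calls, where 2.81% of all tested genes were called higher and 3.47% lower. Of 12 tested phagocytic genes, Cd36 was called higher and Stab1 lower, and Axl, the partner of Mertk in engulfment, did not pass (-0.18, SE 0.17). Of 7 tested genes of alternative activation, Lgals3 (galectin-3) was called higher (1.24, SE 0.22, adjusted p = 0.00103) and Tgfbi lower (-0.65, SE 0.18), the latter lost without any 1 of the 4 animals. Ciita, the switch for class II antigen presentation, was the single call among 6 tested genes of its list (-1.28, SE 0.32). Ctsk was the single call among 5 tested matrix proteases, with Mmp12 at 0.99 (SE 0.32, adjusted p = 0.0777). None of 3 tested inflammatory genes, 3 interferon genes, 3 death pathway genes and 11 proliferation genes was called (2 of these genes had an unadjusted p under 0.05), and no call was made among the 4 other-cell marker lists that had a tested gene. The other 6 had none, so no call was possible there. Fibroblast and mural markers were higher in the other class of every animal, at 25.1, 176, 217 and 198 CPM against 13.1, 89.3, 8.85 and 6.42 in the alveolar class, and so were B cell markers, at 58.6, 99.8, 58.4 and 188 CPM against 45.7, 20.4, 41.3 and 64.2. With DESeq2, which kept more genes, all 8 fibroblast markers (median log2 fold change -2.42) and all 6 B cell markers (-2.04) lay below 0, against a median of -0.25 over all genes, and their part in the class differences was not tested. Il6, Il12a, Il12b, Ccl2, Ccl4, Ptgs2, Il10 and Ido1 gave no transcript in the alveolar class. Transcripts below the reach of this depth cannot be told from none.

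**Figure D4:**
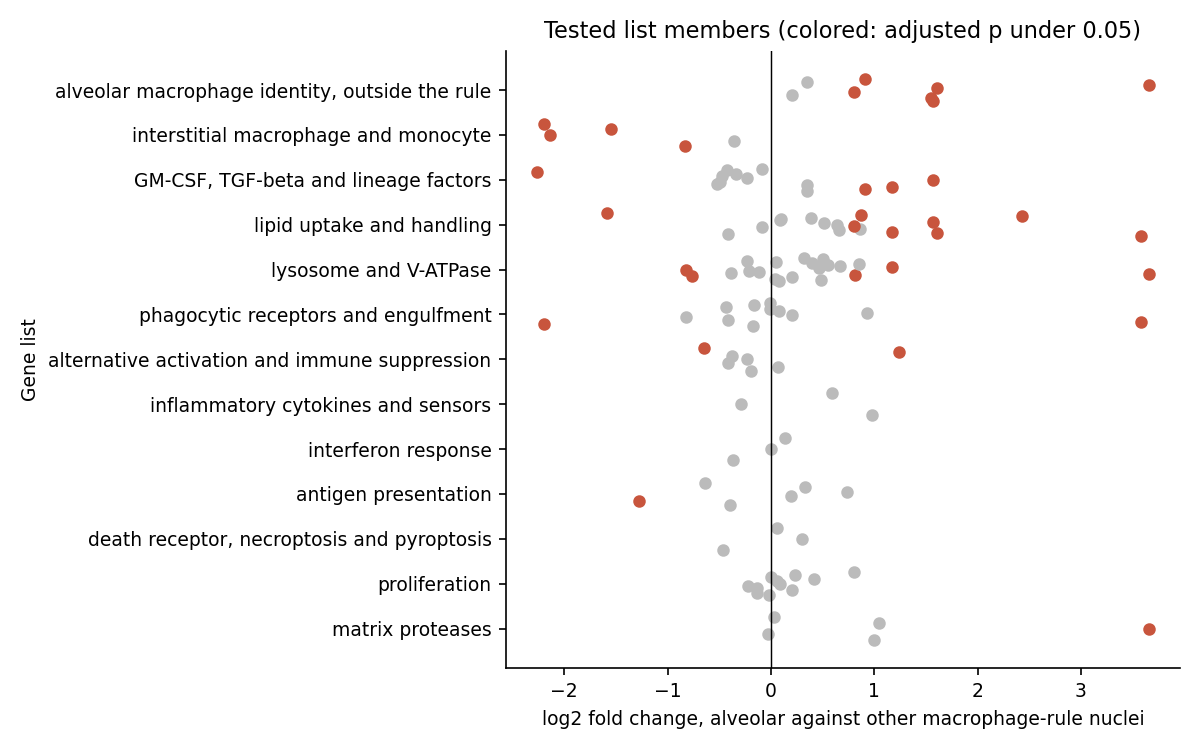
Log2 fold change between alveolar and other macrophage-rule nuclei (horizontal axis) of each tested gene, by gene list (vertical axis), colored where the adjusted p is under 0.05. All 8 tested identity genes lie above 0 and all 5 tested interstitial genes below it. Among them, Ctsk and Maf passed the filter on low counts through the class in which they are higher.

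Sequence was read for genes that rose together in the alveolar class, as the 250 bases before the start of the canonical GENCODE transcript on GRCm39. Col24a1, Csf2rb, Slc7a2, Ctsd and Mgll are shown because they rose and hold a searched motif, and Ctsk because it rose and holds none. Capitals mark matches, on either strand, to 3 motifs. The E-box was searched as CACGTG. The search for the M-box used the letters TCATGTG. For the core site of PU.1 the letters were GAGGAAG. These letters are bound by the TFE and MITF family, by MITF and by PU.1, respectively, and the 3 motifs as spelled do not contain each other. Windows run 5′ to 3′ on the strand of the gene.
Ctsk, chr3:95405994-95406243, plus strand: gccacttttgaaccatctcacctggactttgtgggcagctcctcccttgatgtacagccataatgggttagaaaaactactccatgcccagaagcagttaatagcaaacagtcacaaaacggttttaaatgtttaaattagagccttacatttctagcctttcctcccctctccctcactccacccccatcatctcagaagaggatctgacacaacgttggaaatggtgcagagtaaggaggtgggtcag
Col24a1, chr3:144997983-144998232, plus strand: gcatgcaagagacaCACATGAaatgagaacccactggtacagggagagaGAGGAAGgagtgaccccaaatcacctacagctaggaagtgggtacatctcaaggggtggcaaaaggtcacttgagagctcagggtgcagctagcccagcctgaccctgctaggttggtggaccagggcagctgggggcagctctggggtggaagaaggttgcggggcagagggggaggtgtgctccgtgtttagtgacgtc
Csf2rb, chr15:78209940-78210189, plus strand: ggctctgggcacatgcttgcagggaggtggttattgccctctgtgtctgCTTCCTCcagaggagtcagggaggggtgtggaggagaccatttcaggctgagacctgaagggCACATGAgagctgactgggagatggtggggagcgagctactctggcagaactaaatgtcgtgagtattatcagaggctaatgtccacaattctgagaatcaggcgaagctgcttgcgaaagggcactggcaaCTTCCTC
Slc7a2, chr8:41315183-41315432, plus strand: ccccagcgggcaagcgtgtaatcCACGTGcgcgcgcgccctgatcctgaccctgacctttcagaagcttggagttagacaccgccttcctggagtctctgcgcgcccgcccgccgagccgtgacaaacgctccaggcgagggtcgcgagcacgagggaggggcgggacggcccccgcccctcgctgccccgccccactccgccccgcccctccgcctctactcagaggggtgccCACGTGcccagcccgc
Ctsd, chr7:141941776-141942025, minus strand: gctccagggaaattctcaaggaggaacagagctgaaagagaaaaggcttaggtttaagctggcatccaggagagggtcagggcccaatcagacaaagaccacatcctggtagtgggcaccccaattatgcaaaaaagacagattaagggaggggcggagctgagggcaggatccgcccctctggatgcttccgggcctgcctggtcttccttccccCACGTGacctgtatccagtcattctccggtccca
Mgll, chr6:88701144-88701393, plus strand: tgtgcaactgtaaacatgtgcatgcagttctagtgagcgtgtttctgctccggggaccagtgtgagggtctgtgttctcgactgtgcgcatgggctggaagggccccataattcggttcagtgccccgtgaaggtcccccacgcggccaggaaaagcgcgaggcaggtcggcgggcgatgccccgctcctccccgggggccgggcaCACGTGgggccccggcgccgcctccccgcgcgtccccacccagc

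The E-box was present in 8 of 100 readable windows of the genes called higher in the alveolar class (8.00%), in 3 of 127 of those called lower (2.36%) and in 1363 of all 21770 windows (6.26%). The Slc7a2 window held it at 2 places, 227 and 16 bases before the start, and the Ctsd window at 34. The M-box was in 4 of 100 windows called higher (4.00%), 5 of 127 called lower (3.94%) and 2.90% of all, and the PU.1 core in 14.0%, 13.4% and 10.3%. Col24a1 and Csf2rb held both an M-box and a PU.1 core, and Csf2rb held the PU.1 core at 2 places. These matches are a description of the letters in the windows.

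Finally, RPC and RP animals were compared within the alveolar class, which asks whether the tumor genotype went with a difference in these macrophages. Few differences passed the test: of 8330 genes, 2 were called (0.024%), both lower in RPC, and 772 had an unadjusted p under 0.05, 324 higher and 448 lower. Scaled by library size alone, 10 genes were called, 6 higher and 4 lower, and the median log2 fold change of all genes moved from 0.0071 to 0.144. In simulated data of this design, 48% of 2-fold and 83% of 4-fold changes were recovered. The simulated counts had less spread between animals than the real ones (fitted coefficient of variation 0.207), so these rates can overstate what was detectable. Leaving out 1 animal at a time gave 13 to 95 calls. The Rn18s-rs5 shares and the neuroendocrine, endothelial, T and NK cell and airway sums given above also set both RP apart from both RPC animals. Their part in these values was not tested.

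Both called genes had lower values in RPC outside the macrophages too. Gm30835 was at 84.9 and 297.5 CPM in RP1 and RP2 and at 5.90 and 10.7 in RPC1 and RPC2 (log2 fold change -4.91, SE 0.58, adjusted p = 0.0160), but in nuclei outside the macrophage rule it was higher still in RP, at 312 and 476 CPM, and at 9.48 and 13.001 in RPC (log2 fold change -5.17, adjusted p = 0.201). Its call was lost without RP2. Pabpc4, a poly(A)-binding protein, was at 157 and 150.3 CPM in RP and 28.5 and 21.4 in RPC (log2 fold change -2.70, SE 0.33, adjusted p = 0.0160), against 527 and 334 CPM in RP and 24.1 and 35.4 in RPC outside the rule (log2 fold change -3.91, adjusted p = 0.229). For both genes the RP level in the alveolar class lay below that of the nuclei outside the rule, and how much of it came from RNA of other cells was not tested.

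Among genes with at least 2 times the level found outside the rule and an average log2 CPM of at least 5, the smallest p in the downward direction beside the called genes was that of Ctsz (cathepsin Z), at 189 and 244 CPM in RP and 77.7 and 62.1 in RPC (log2 fold change -1.78, SE 0.28, adjusted p = 0.0577). Ctsz was past the threshold in 8 of 10 alternatives, and its value in nuclei outside the rule was -1.43 (SE 0.45, adjusted p = 0.287). Fam20c, a kinase of secreted proteins, stood at 222 and 182 CPM in RP and 46.2 and 74.9 in RPC (-1.89, SE 0.33, adjusted p = 0.0892). Snx8, a sorting nexin, had -1.66 (SE 0.30), Nrros, which holds latent TGF-beta on the cell surface, -1.51 (SE 0.28), and Sh3bp2, an adaptor of macrophage signaling, -1.37 (SE 0.26), with adjusted p of 0.101, 0.107 and 0.121. The genotypes did not overlap for any of these 5 genes, by the rule that named them. Inhba, the activin A chain, was chosen after its values were seen and gave 52.2 and 51.7 CPM in RP against 1.97 and 6.42 in RPC on 46 transcripts (-3.96, SE 0.62, adjusted p = 0.0577).

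In the upward direction no gene was called. St6galnac3, a sialyltransferase, was at 13.1 and 6.26 CPM in RP and 75.7 and 109.2 in RPC (3.39, SE 0.53, adjusted p = 0.0577), and Ms4a4a, a membrane protein of macrophages, at 6.53 and 17.2 against 95.4 and 141 (2.84, SE 0.46, adjusted p = 0.0619). Each was past the threshold in 9 of 10 alternatives. In the other macrophage-rule nuclei Ms4a4a had 41.9 and 105.6 CPM in RP and 342 and 465 in RPC (2.23, adjusted p = 0.0205). Itgad, the integrin CD11d chain, had 3.69 (SE 0.66, adjusted p = 0.101), Vcam1, a vascular and macrophage adhesion molecule, 2.46 (SE 0.48, adjusted p = 0.121) and Kynu, an enzyme of tryptophan breakdown, 0.96 (SE 0.29, adjusted p = 0.349). The value of Vcam1 ran from 1.31 without RP2 to 3.37 without RP1 and was 4.44 with at least 2 alveolar transcripts. Without 1 animal, Ms4a4a ran from 2.53 to 3.96, Itgad from 3.00 to 4.23 and St6galnac3 from 2.63 to 3.68. Vcam1 rested on 14 transcripts in each RP animal and 252 and 119 in the RPC animals. Its level was 91.4 and 21.9 CPM in RP1 and RP2 and 248 and 255 in RPC1 and RPC2.

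By list, the lysosome and V-ATPase genes leaned to lower values in RPC. All 26 were tested, none was called, 25 lay below 0, and the median was -0.49 against 0.0071 over all tested genes. In 11 of 26 both RPC animals lay below both RP animals under either scaling, and in none above, where over all tested genes the shares were 14.5% below and 21.3% above. Ctsd was at 392 and 274 CPM in RP and 198 and 178 in RPC (-0.92, SE 0.27, adjusted p = 0.344), Mitf at 1005 and 888 against 601 and 634 (-0.75, SE 0.26), Tfeb, the main activator of lysosomal genes, at 189 and 153 against 116 and 72.8 (-0.93, SE 0.30), and Atp6v1a, a proton pump subunit, at 235 and 207 against 114 and 161 (-0.82, SE 0.29). Ctsk, in contrast, had -0.09 (SE 0.26) and Atp6v0a1 0.02 (SE 0.25). Over the alternatives the median ran from -0.86 to -0.32, with 22 to 26 genes below 0. The same list had a median of -0.40 in the other macrophage-rule nuclei (19 tested) and -0.10 in the nuclei outside the rule.

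**Figure D5:**
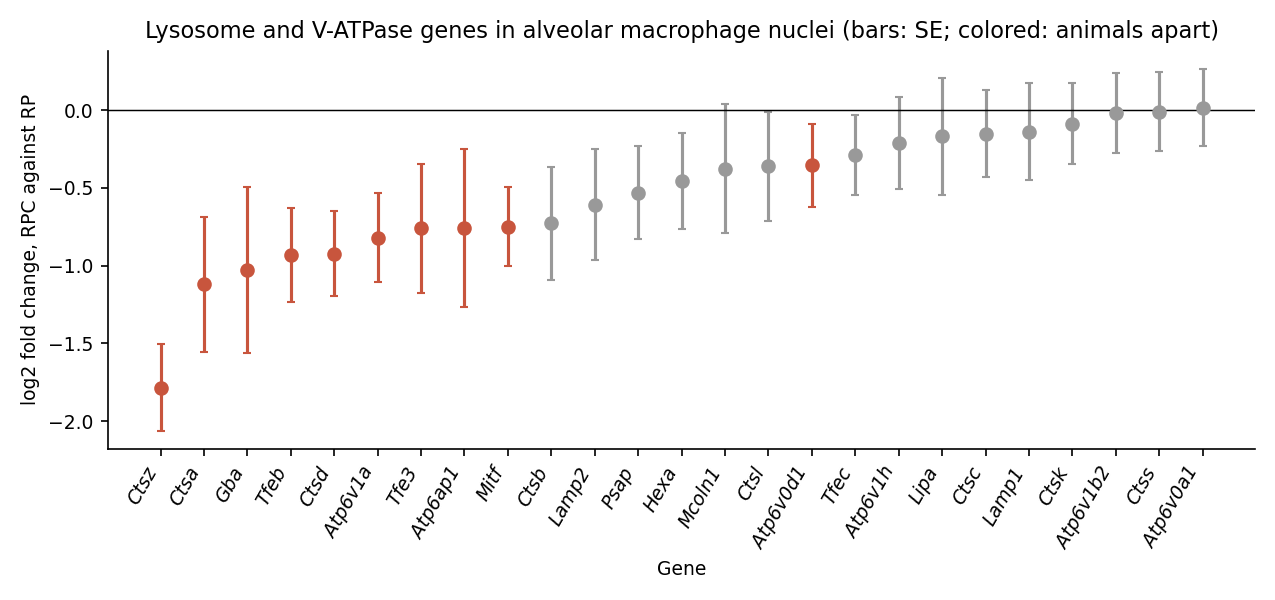
Log2 fold change of RPC against RP in alveolar macrophage nuclei (vertical axis) for 25 of the 26 lysosome and V-ATPase genes, with bars of 1 SE, colored where both RPC animals lie below both RP animals. Ctsz has the lowest value, at -1.78, and 24 of the 25 plotted genes lie below 0.

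The identity genes outside the rule leaned the same way, with 14 of 20 tested, 10 below 0, a median of -0.32 and 6 apart below against 1 above (over all tested genes 14.5% below and 21.3% above). Itgax was at 346 and 343 CPM in RP and 158 and 212 in RPC (-1.04, SE 0.27, adjusted p = 0.235), Lpl at 333 and 374 against 194 and 272 (-0.76, SE 0.27), and Csf2ra, the GM-CSF receptor alpha chain, at 235 and 68.9 against 44.3 and 47.1 (-1.65, SE 0.51). Pparg stayed at 0.03 (SE 0.25). Their median in nuclei outside the rule was -0.28.

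Alternative activation genes gave 5 of 11 tested apart below and 2 above, with a median of -0.48. Lgals3 (340 and 335 CPM in RP, 176 and 246 in RPC), Tgfbi (307 and 329, 128 and 218), Spp1, Vegfa and Tgfb1 were lower in both RPC animals, while Arg1 (arginase 1), at 0 and 4.70 CPM in RP and 36.4 and 30.0 in RPC on 54 transcripts, and Cd274, which encodes PD-L1, at 78.3 and 98.6 CPM in RP and 221 and 118 in RPC, were higher. None passed the test, with adjusted p of 0.225 for Arg1 and 0.523 for Cd274. All 7 tested matrix proteases lay below 0, with a median of -0.64 and 3 of 7 apart below. Lipid genes gave 5 of 22 apart below and 2 above (median -0.17), lineage factors 4 of 16 below and 1 above (-0.14), phagocytic genes 3 of 16 below and 1 above (-0.19), antigen presentation genes 2 of 14 below and 1 above (-0.12), and interstitial genes 1 of 9 below and none above (-0.22). Over all tested genes 14.5% were apart below and 21.3% above. The shares of antigen presentation and interstitial genes below were no larger than that.

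Other lists had medians above 0. Of 15 tested proliferation genes 5 were apart above and none below (median 0.23), with Mki67 at 209 and 359 CPM in RP and 655 and 827 in RPC (1.19, SE 0.30, adjusted p = 0.226). The nuclei outside the rule held 688 and 585.5 CPM of Mki67 in RP and 973 and 1315 in RPC, and 6 of 11 tested neuroendocrine markers were likewise apart above in the alveolar class, none below (median 0.44). Interferon genes gave 2 of 10 above and none below (0.09), inflammatory genes 1 of 6 above and 2 below (0.14), and death pathway genes 3 of 8 above, Mlkl and Casp4 among them, and 2 below, Cflar and Tnfrsf1a (0.08). Over all tested genes 21.3% were apart above and 14.5% below, with a median of 0.0071. The interferon and inflammatory shares above were no larger than that, so they are not read as a difference.

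No difference was called for the targeted genes. Casp8, the initiator caspase of the death receptors, was at 131 and 100.2 CPM in RP and 165 and 120 in RPC (0.24, SE 0.30, adjusted p = 0.849), and at 58.2, 61.3, 92.1 and 67.1 CPM outside the rule. Rb1 had -0.01 (SE 0.25) and Trp53 -0.24 (SE 0.52). Counts over whole genes do not resolve deleted exons, so these values check neither the labels nor the deletion in macrophages.

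Whether the genotype difference itself differed between alveolar and other macrophage-rule nuclei was tested by the interaction of class and genotype. None of 4740 genes was called by edgeR (0%), 197 had an unadjusted p under 0.05, and DESeq2 also called none, with 56 unadjusted. In simulated data of this design 10% of 2-fold and 62% of 4-fold differences were recovered. These rates can also be too high, since the simulated spread between animals was below the fitted one (coefficient of variation 0.167). Nothing in the genotype comparison is therefore called particular to the alveolar class.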

How the data were processed

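Nuclei of 4 animals were profiled by split-pool single-nucleus RNA sequencing, and per the study's methods the authors used the Parse software to map reads to GRCm39 and to assign nuclei to animals. Each animal has 1 deposited matrix, in unnormalized transcript counts per gene and nucleus, which merges 7 sublibraries that were not matched to the library labels. Of the deposited table of nuclei, 8 columns were not used.

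Of 38353 nuclei, 38254 were kept, with at least 300 transcripts, at most 10% mitochondrial transcripts and at most 12000 genes. No doublet caller was run, and as an alternative the deepest nuclei (over 4 times their animal's median depth) were left out. Counts were summed per animal and class and tested with edgeR 4.0.16 under R 4.3.3 (quasi-likelihood test, TMM scaling, filterByExpr, two-sided, Benjamini-Hochberg adjusted p under 0.05). The between-class and interaction tests had the animal as a block and left out the 13 rule genes, which stayed in the library sizes. Scripts ran under Python 3.11.15 with scipy 1.17.1 and were tested on simulated data. DESeq2 1.42.0 was an alternative. Promoter windows came from GENCODE and GRCm39. The labels do not say more of the animals' origin, so p-values measure the spread between these 4 animals.

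Genes apart between genotypes are those whose RPC animals all lie above, or all below, the RP animals in CPM both with and without TMM scaling. TMM scaling alone set 1774 genes apart above and 1718 below, and plain CPM 2432 and 1206. Named genes were the rule genes, for each list up to 4 members of highest mean CPM in the alveolar class and up to 6 called members by smallest p, the 10 largest rises and 10 largest falls between the classes (average log2 CPM 5 or more) with the same direction in 4 animals, and, between genotypes, called genes and up to 5 of smallest p per direction that were apart, of average log2 CPM at least 5 and at least 2 times the level outside the macrophage rule. Inhba and further list members in the genotype comparison, such as Tfeb, Arg1 and Csf2ra, were named after their values were seen. The members and all 25 gene lists were chosen with earlier results of these data known. Some members of the gene lists enter the counts but are not reported here by name.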

Additional observations from a re-analysis of the deposited data

Results flagged for a closer look

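The summed endothelial markers were lower in the alveolar than in the other macrophage-rule nuclei of both RP animals (differences of -245 and -165 CPM in RP1 and RP2) and higher in both RPC animals (67.1 and 165 CPM in RPC1 and RPC2), a difference between the genotypes that was not tested. The T and NK cell markers went the same way, with -157 and -35.8 CPM in RP1 and RP2 and 46.9 and 234 CPM in RPC1 and RPC2, also not tested.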

How the results depend on the processing

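The difference in the alveolar share of kept nuclei, 0.0438 points, changed sign on thinning to 1000 transcripts (-0.00914), without RP1 (-0.519) and without RPC1 (-0.104), and leaving out 1 animal at a time it ran from -0.519 to 0.607. The mean alveolar share among macrophage-rule nuclei stayed higher in RPC in all 8 alternatives, from 8.94 to 33.4 points without 1 animal. Between genotypes, 2 calls became 18 with DESeq2, 10 with library sizes alone, 116 without a filter on low counts, 11 with at least 2 alveolar transcripts, 41 without nuclei above 4 times the median, 13 to 95 without 1 animal (13 without RP1, 71 without RP2, 24 without RPC1, 95 without RPC2), and 95 with a replicate block. That block joins animals that share a number only, and the deviations of same-numbered animals correlated at -0.0116, so no pairing was used. Where an animal was left out, the lone sample of its genotype was assumed to vary like the others. Between the classes, 237 calls became 147 with DESeq2, 426 without a filter, 45 in nuclei of at least the median depth and 111 to 317 without 1 animal, and 227 to 313 under the other alternatives. The interaction gave 0 calls with DESeq2, with library sizes alone and without the deepest nuclei, 5 without a filter, 2 with at least 2 alveolar transcripts and 4 to 12 without 1 animal (4 without RP1, 12 without RP2, 4 without RPC1, 9 without RPC2). All 187 alternative values of the 20 genes named between the classes kept direction and call. Of 149 values of the 15 genes named between genotypes, 59 passed a threshold missed before, 1 no longer passed, and 9 changed sign: Casp8 without RP2 (-0.00795), Rb1 with DESeq2 (0.0348), library sizes alone (0.13), no filter (0.0615), without the deepest nuclei (0.38), without RP1 (0.03) and without RPC1 (0.11), and Trp53 with at least 2 alveolar transcripts (0.00862) and without RPC2 (0.0243). Without 1 animal, Casp8 ran from -0.00795 to 0.41, Rb1 from -0.11 to 0.11 and Trp53 from -0.78 to 0.0243. The cause of these changes was not tested beyond fewer nuclei or animals in the settings that remove them. RP1, with 34 nuclei, and the 170 other macrophage-rule nuclei limit what can be detected.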
